A study of Homo sapiens with 6 samples.

Results

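Transcripts of the receptors for insulin and the insulin-like growth factors (IGFs), of their docking proteins and of the secreted IGF binding proteins were compared between parental LNCaP cells and an enzalutamide-resistant derivative, LNCaP-enzaR. The set was fixed by gene symbol and holds 10 of the 35554 genes in the count table, namely IGF1R, INSR, IGF2R, IRS1, IRS2, IGFBP2, IGFBP3, IGFBP4, IGFBP5 and IGFBP6. LNCaP is an established line from a metastasis of human prostate carcinoma, and enzalutamide is a drug that blocks androgen signaling. Parental cells (n = 3 flasks) carry the phenotype label Parental and LNCaP-enzaR cells (n = 3 flasks) the label Enza-resistant, each taken below confluence for total RNA. According to the methods of the study, the resistant line was grown out of LNCaP in the continuous presence of the drug and then held at a lower concentration. The labels leave unsaid if the drug was still present when the cells were taken. The resistant line is 1 culture history, so the comparison is between a pair of lines, and the spread is that between flasks of a line.

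IGF1 and IGF2 signal through IGF1R, a receptor tyrosine kinase, and insulin signals through its close relative INSR. Both receptors dock IRS1 and IRS2, which recruit PI3K and so switch on AKT, while IGF2R takes up IGF2 for degradation and sorts lysosomal enzymes. IGF binding proteins carry the ligands outside the cell, and can hold them back from the receptor or release them after cleavage. In prostate epithelium, IGF signaling is a known survival and growth input that crosses with androgen signaling.

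Libraries held 77759122 to 98616465 counts. At this depth, 3 counts corresponded to 0.0302 to 0.0382 CPM, the counts scaled to 1000000 per TMM-normalized library, and such limits cover counting error only. The mitochondrial share of the counts was 6.72% to 7.06% in parental libraries and 14.7% to 15.5% in LNCaP-enzaR libraries. Prostate luminal identity was checked on 9 markers, all of which were measured. Their summed level was 4516 to 4573 CPM in parental cells and 3136 to 3298 CPM in LNCaP-enzaR, with 5 markers lower, 2 higher and 2 not past the threshold. Of the markers of other cell types, the basal genes KRT5 and TP63 had at most 2 counts in any library, whereas KRT14, the other basal gene listed, was at 1.34 ± 0.394 CPM in parental cells and 0.592 ± 0.173 CPM in LNCaP-enzaR (lower past the threshold). The endothelial gene VWF was at 5.74 ± 0.329 and 4.15 ± 0.209 CPM and the neuroendocrine gene SYP at 2.05 ± 0.221 and 2.92 ± 0.136 CPM, neither past the threshold. The other endothelial genes listed, PECAM1 and CDH5, had at most 4 and 3 counts in any library. The other neuroendocrine genes, CHGA and INSM1, had at most 10 and 3. The immune genes PTPRC, CD3E and CD14 had at most 5, 1 and 10 counts. The 6 fibroblast markers measured of 8 listed summed to 14.7 to 17.9 CPM in parental cells and 8.21 to 8.95 CPM in LNCaP-enzaR, with THY1 at no more than 2 counts. COL1A1 carried this sum and was lower (13.4 and 4.29 CPM), while LUM (0.425 and 1.44 CPM) and PDGFRB (0.641 and 1.73 CPM) were higher. The part of these differences in the results was not tested. In bulk RNA, fewer cells that express a gene cannot be told apart from less RNA per cell.

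Receptor and binding protein transcripts were lower in the resistant line, with INSR and IGFBP3 as the exceptions among those tested. Of the 10 genes, 8 passed the filter on low counts, none with fewer than 19 counts in any library. Of these, 6 were lower past the threshold, which was an adjusted p of 0.05 with a fold change of 1.5. None was higher past it. Over all 19711 genes tested, 42.7% were past the threshold, 23.3% as higher and 19.5% as lower in LNCaP-enzaR. The ranges of both lines did not overlap for 7 of the 8 genes, against 70.6% of all genes tested. The median log2 fold change was −1.20 for the 8 genes and 0.01 for all genes tested. Irrespective of fold, an adjusted p of 0.05 was reached by 7 of the 8, against 66.3% of all genes, and with a fold of 2 it was reached by 5 of the 8, against 28.2%. Leaving out the mitochondrial genes gave the same count of 6 lower.

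**Figure D1:**
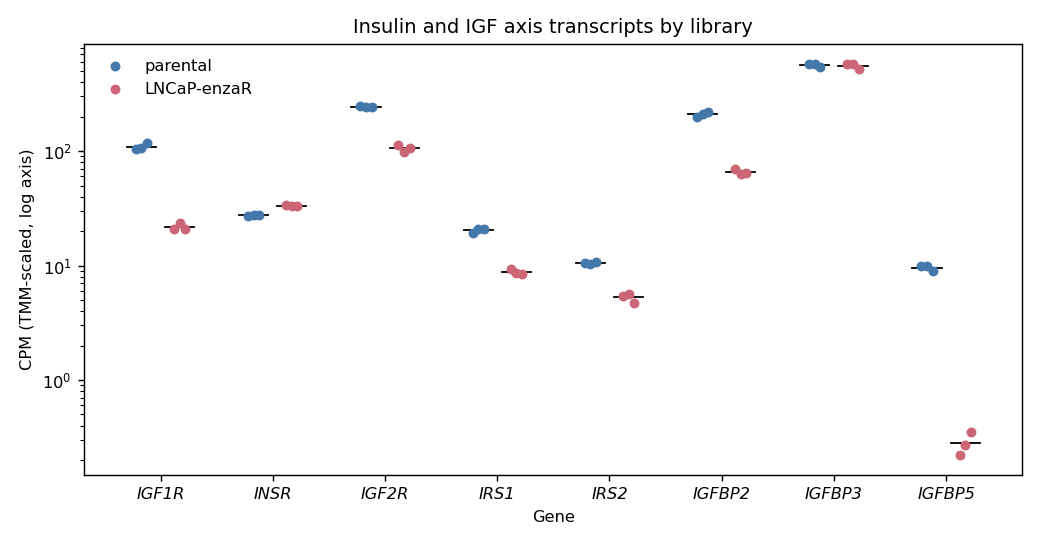
Level of each tested gene (x axis) in CPM, TMM-scaled, on a log axis (y axis), with 1 point per library, blue for parental and red for LNCaP-enzaR, and a bar at the mean of 3 libraries. The colors separate for every gene but IGFBP3, upward for INSR and downward for the other 6, most of all for IGFBP5, which sat between 0.220 and 0.353 CPM in LNCaP-enzaR.

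The windows upstream of 4 of these genes are shown in pairs. The sister receptors IGF1R and INSR moved in opposite directions, INSR by less than the fold limit. The adjacent binding protein genes IGFBP2 and IGFBP5 both fell, by different amounts. Each run holds the 250 bases before the RefSeq start of the gene (GRCh38.p14), in the direction of transcription. Capitals mark matches on either strand to the GC box (GGGCGG) or to the androgen response hexamer (TGTTCT), and GC boxes that overlap run together.
IGF1R: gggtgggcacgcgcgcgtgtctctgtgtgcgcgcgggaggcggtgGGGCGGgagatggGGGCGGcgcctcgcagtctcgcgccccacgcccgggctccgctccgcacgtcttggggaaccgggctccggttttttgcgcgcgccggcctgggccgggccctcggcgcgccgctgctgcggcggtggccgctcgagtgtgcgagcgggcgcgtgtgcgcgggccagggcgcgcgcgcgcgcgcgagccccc
INSR: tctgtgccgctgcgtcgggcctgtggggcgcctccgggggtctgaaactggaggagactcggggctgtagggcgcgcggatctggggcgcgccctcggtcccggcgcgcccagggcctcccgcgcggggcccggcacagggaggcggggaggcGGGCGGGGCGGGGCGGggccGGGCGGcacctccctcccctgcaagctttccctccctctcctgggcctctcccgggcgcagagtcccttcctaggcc
IGFBP2: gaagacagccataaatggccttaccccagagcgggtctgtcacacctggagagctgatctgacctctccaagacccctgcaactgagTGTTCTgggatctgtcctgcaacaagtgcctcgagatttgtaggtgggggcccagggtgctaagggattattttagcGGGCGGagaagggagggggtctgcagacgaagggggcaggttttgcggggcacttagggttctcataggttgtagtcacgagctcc
IGFBP5: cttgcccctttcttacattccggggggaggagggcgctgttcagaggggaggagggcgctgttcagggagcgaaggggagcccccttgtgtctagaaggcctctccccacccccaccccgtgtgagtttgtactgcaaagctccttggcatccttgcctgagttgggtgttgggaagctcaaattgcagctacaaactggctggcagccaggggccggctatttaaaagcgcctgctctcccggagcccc

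The window of IGF1R lies at chr15:98648289-98648538 on the plus strand, that of INSR at chr19:7294415-7294664 on the minus strand, that of IGFBP2 at chr2:216632578-216632827 on the plus strand and that of IGFBP5 at chr2:216695550-216695799 on the minus strand. Both receptor windows were GC-rich, with 48 CpG dinucleotides in 81.2% GC for IGF1R and 28 CpG in 78.4% GC for INSR. The windows of IGFBP2 and IGFBP5 held 7 and 8 CpG. The median over 35116 such windows was 11 CpG.

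GC boxes numbered 2 for IGF1R, 4 for INSR, 6 for IGF2R, 4 for IRS1, 5 for IRS2, 2 for IGFBP3 and 1 each for IGFBP2, IGFBP4 and IGFBP6. IGFBP5 held none. At least 1 GC box was present in 9 of the 10 windows and in 42.6% of all windows. The androgen response hexamer was found once, in IGFBP2, and occurs in 12.4% of all windows. A FOXO motif (TGTTTAC, either strand) was found once, in IGFBP6, and occurs in 2.98% of all windows. A TATA box (TATAAA, either strand) was found once, in IGFBP4, against 10.7% of all windows. These are matches of letters only. The RefSeq starts of IGFBP3 and IGFBP6 lie inside the genes as counted. The window of IGFBP3 and most of that of IGFBP6, with its FOXO motif, are therefore not upstream of the counted genes.

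IGF1R, the receptor for both IGFs, had the largest decrease among the receptors. It is encoded on chromosome 15 (98648539 to 98964530, plus strand, GRCh38, ENSG00000140443.15). Its level was 104, 107 and 117 CPM in the parental libraries and 20.8, 23.3 and 20.6 CPM in the LNCaP-enzaR libraries. Every parental library thus lay far above every LNCaP-enzaR library. The mean fell from 109 ± 6.80 to 21.6 ± 1.49 CPM (SD, n = 3 each), which is 19.7% of the parental level. The log2 fold change was −2.34 (SE 0.072, 95% interval −2.50 to −2.19, Benjamini-Hochberg adjusted p by edgeR's quasi-likelihood method = 2.29e-12). Of all genes tested, 3.31% had a fold change as low or lower.

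INSR, the insulin receptor, did not share this decrease. It lies on chromosome 19 (7112255 to 7294414, minus strand, ENSG00000171105.14). Its level was 26.9, 27.5 and 27.6 CPM in parental cells and 33.9, 32.9 and 33.2 CPM in LNCaP-enzaR. The 3 resistant libraries were all above the 3 parental ones, by a small margin. The means were 27.4 ± 0.387 and 33.3 ± 0.528 CPM, 1.22-fold as high in LNCaP-enzaR, with a log2 fold change of 0.29 (SE 0.062, 95% interval 0.15 to 0.42, edgeR, Benjamini-Hochberg adjusted p = 0.000912). The difference exceeded the spread between replicates and was under the 1.5-fold limit.

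IGF2R, the uptake receptor for IGF2, was also lower in the resistant line. The gene is on chromosome 6 (159969082 to 160113507, plus strand, ENSG00000197081.16), and 2.53% of its exonic bases are shared with a pseudogene, CHP1P2. Its level was 246, 241 and 243 CPM in parental libraries and 112, 99.04 and 107 CPM in LNCaP-enzaR libraries. The groups were well apart, and the parental libraries were within a few CPM of each other. The mean fell from 243 ± 2.61 to 106 ± 6.54 CPM, to 43.6% of the parental level (log2 fold change −1.20, SE 0.058, 95% interval −1.32 to −1.07, edgeR, Benjamini-Hochberg adjusted p = 2.22e-10).

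Both docking proteins fell. IRS1 (chromosome 2, 226731312 to 226799820, minus strand, ENSG00000169047.6) was at 19.1, 20.9 and 20.9 CPM in parental cells and at 9.36, 8.67 and 8.45 CPM in LNCaP-enzaR. The lines did not overlap, and the mean fell from 20.3 ± 1.03 to 8.83 ± 0.478 CPM. Its log2 fold change was −1.20 (SE 0.080, 95% interval −1.37 to −1.03, edgeR, Benjamini-Hochberg adjusted p = 7.11e-09).

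IRS2 (chromosome 13, 109752695 to 109786583, minus strand, ENSG00000185950.9) was at 10.6, 10.2 and 10.8 CPM in parental libraries and at 5.47, 5.66 and 4.67 CPM in resistant ones. Again no resistant library reached a parental one. The mean fell from 10.5 ± 0.276 to 5.27 ± 0.528 CPM, to 50.02% of the parental level (log2 fold change −0.9996, SE 0.098, 95% interval −1.21 to −0.79, edgeR, Benjamini-Hochberg adjusted p = 4.94e-07). The interval of its change overlaps that of IRS1, and the difference between the substrates was not tested.

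Among the binding proteins, IGFBP5 changed most and IGFBP3 least. IGFBP5, a binding protein that sits in the matrix around cells, is on chromosome 2 (216672105 to 216695549, minus strand, ENSG00000115461.5). It had 909, 903 and 698 counts in the parental libraries and 19, 24 and 35 counts in the resistant ones, or 9.82, 9.93 and 8.89 CPM against 0.220, 0.272 and 0.353 CPM. Some reads remained in every resistant library, all above the 3-count floor. The mean fell from 9.54 ± 0.573 to 0.282 ± 0.067 CPM, 33.4-fold lower (log2 fold change −5.06, SE 0.160, 95% interval −5.41 to −4.72, edgeR, Benjamini-Hochberg adjusted p = 3.16e-12). Only 0.748% of all genes tested were as low or lower. An antisense RNA, DIRC3-AS1, shares 7.53% of the exonic bases of IGFBP5, and had at most 4 counts in any library.

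IGFBP2, a circulating and pericellular carrier with a preference for IGF2, lies next to IGFBP5 (chromosome 2, 216632828 to 216664436, plus strand, ENSG00000115457.10), and the genes point toward each other. Its level was 199.8, 211 and 221 CPM in parental cells and 69.4, 63.1 and 63.9 CPM in LNCaP-enzaR. All resistant libraries were under all parental libraries. The mean fell from 211 ± 10.6 to 65.5 ± 3.44 CPM, 3.22-fold lower (log2 fold change −1.69, SE 0.061, 95% interval −1.82 to −1.55, edgeR, Benjamini-Hochberg adjusted p = 1.24e-11).

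IGFBP3, the main carrier of IGFs in blood, showed no difference between the lines beyond a narrow interval. It is on chromosome 7 (45912245 to 45921874, minus strand, ENSG00000146674.16) and was at 571, 581 and 545 CPM in parental libraries and at 571, 577 and 524 CPM in LNCaP-enzaR. The ranges overlapped. With means of 566 ± 18.7 and 557 ± 29.1 CPM, the log2 fold change was −0.02 (SE 0.055, edgeR, Benjamini-Hochberg adjusted p = 0.738). Its 95% interval, −0.14 to 0.10, corresponds to 90.7% to 107% of the parental level.

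IGFBP4 and IGFBP6 were at the limit of detection and were not tested. IGFBP4 (chromosome 17, 40443450 to 40457725, ENSG00000141753.7) had 0, 0 and 2 counts in parental libraries and 5, 0 and 0 in LNCaP-enzaR. IGFBP6 (chromosome 12, 53097436 to 53102345, ENSG00000167779.9) had 1, 6 and 10 counts in parental libraries and 0, 0 and 1 in LNCaP-enzaR. Whether either gene differs between the lines cannot be judged from so few counts. For IGFBP6, the lowest parental library (0.0108 CPM) lay just above the highest LNCaP-enzaR library (0.0101 CPM), with 1 count in each. In the alternative fit with no filter on low counts, all 10 genes were tested and 6 were past the threshold, as in the main fit.

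**Figure D2:**
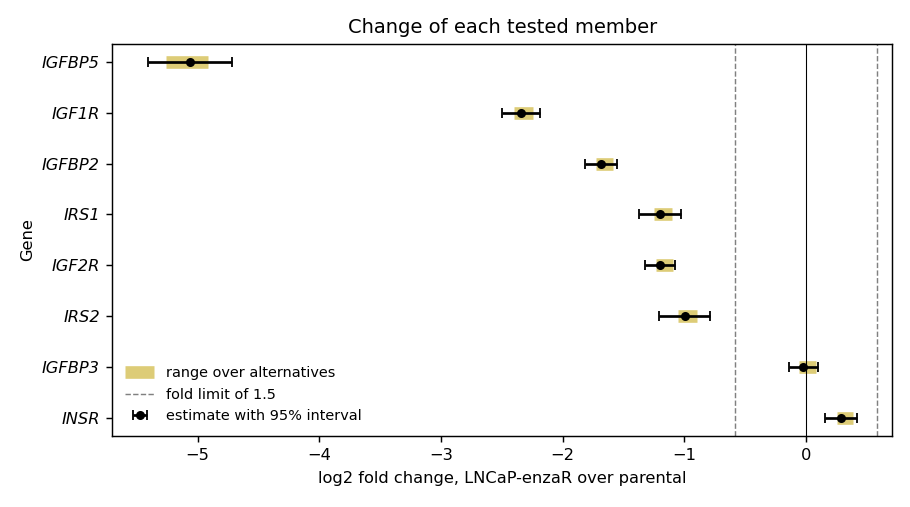
Log2 fold change of each tested gene, LNCaP-enzaR over parental (x axis), by gene (y axis), with the edgeR estimate and its 95% interval as a point and line, the range over alternative analyses as a yellow bar and the 1.5-fold limits as dashed lines. The intervals of 6 genes lie wholly beyond the lower limit, IGFBP3 spans 0, and INSR lies between 0.15 and 0.42.

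Levels were compared between genes only after division by length, as CPM per kb of annotated exon. Among the receptors in parental cells, IGF2R (10.8 ± 0.115) was followed by IGF1R (7.85 ± 0.488) and INSR (2.53 ± 0.036), in CPM per kb. In LNCaP-enzaR the order was IGF2R (4.69 ± 0.289), INSR (3.08 ± 0.049) and IGF1R (1.55 ± 0.107). INSR and IGF1R thus changed places, and the ranges of neighbors in each order did not overlap.

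The ratio of IGF1R to INSR per length was 3.11 ± 0.163 in parental libraries (3.00 to 3.29) and 0.503 ± 0.041 in LNCaP-enzaR libraries (0.476 to 0.550). The ratio of IGF2R to IGF1R was 1.38 ± 0.090 in parental cells and 3.05 ± 0.375 in LNCaP-enzaR. For the substrates, IRS1 to IRS2 was 1.57 ± 0.095 and 1.37 ± 0.115, and the lines met at 1.47. The balance of the substrates therefore did not separate the lines, while the balance of the receptors did.

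Per length, IGFBP3 exceeded the other binding proteins in both lines. In parental cells it stood at 124 ± 4.09 CPM per kb, above IGFBP2 at 44.4 ± 2.23 and IGFBP5 at 1.48 ± 0.089. In LNCaP-enzaR the values were 122 ± 6.37 for IGFBP3, 13.8 ± 0.726 for IGFBP2 and 0.0435 ± 0.010 for IGFBP5. The order was the same in both lines, with no overlap between neighbors.

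The makeup of the summed binding protein level differed accordingly. IGFBP3 made up 72.9% ± 1.48 of it in parental cells and 89.8% ± 0.568 in LNCaP-enzaR. The share of IGFBP2 was 26.2% ± 1.49 and 10.2% ± 0.559, and that of IGFBP5 was 0.869% ± 0.042 and 0.0324% ± 0.009. The sum itself was 167 to 173 CPM per kb in parental libraries and 128 to 139.6 CPM per kb in LNCaP-enzaR libraries. The ratio of IGFBP3 to IGFBP2 was 2.79 ± 0.211 and 8.84 ± 0.559. The plot of binding protein transcripts per length shows these amounts for each flask.

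**Figure D3:**
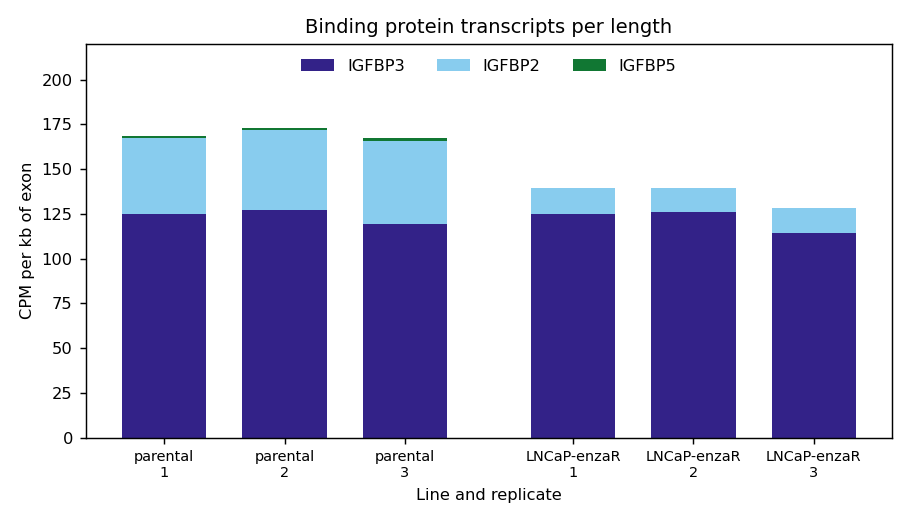
Stacked level of IGFBP3, IGFBP2 and IGFBP5 in CPM per kb of exon (y axis, from 0) in each library (x axis, line and replicate). The IGFBP3 blocks run from 115 to 127 over all 6 bars, whereas the IGFBP2 blocks are 42.1 to 46.6 in parental cells and 13.3 to 14.6 in LNCaP-enzaR.

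Ligands were scarce in both lines. INS had at most 2 counts and IGF2 at most 5 counts in any library, and neither was tested. Annotated readthrough genes share exons with both (37.5% of the bases of INS, 44.4% of those of IGF2 with any gene), so reads may have gone to those. IGF1 was at 1.03, 1.20 and 1.40 CPM in parental cells and at 0.0806, 0.125 and 0.127 CPM in LNCaP-enzaR, in each line from its lowest library to its highest. These ranges did not overlap, with 8 to 11 counts in the resistant libraries. The counts assigned to IGF1 fell by 3.44 on the log2 scale (SE 0.320, edgeR, Benjamini-Hochberg adjusted p = 2.82e-07). HELLPAR, a noncoding RNA on the other strand, shares 82.5% of the exonic bases of IGF1 and moved the same way, with 100 to 159 counts in parental libraries and 15 to 40 in resistant ones. Without the strand setting, reads from the overlap cannot be told apart, and the IGF1 level is uncertain.

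Of the 7 ligands and other carriers listed, 4 were tested, of which 1 was higher, 2 lower and 1 not past the threshold (median log2 fold change −0.88). The share called was 75%, against 42.7% of all genes tested. IGFALS, which encodes the acid-labile subunit that stabilizes IGF complexes in blood, rose from 0.135 ± 0.096 to 0.451 ± 0.184 CPM (log2 fold change 1.75, SE 0.533, edgeR, Benjamini-Hochberg adjusted p = 0.00978). IGFBPL1, a relative of the binding proteins, fell from 0.850 ± 0.045 to 0.397 ± 0.172 CPM (−1.09, SE 0.314, edgeR, adjusted p = 0.00719). IGFBP1, a carrier made mainly by liver, was at 0.568 ± 0.033 and 0.354 ± 0.158 CPM (−0.67, edgeR, adjusted p = 0.109). These 3 genes had fewer than 100 counts in every library.

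Proteases that cut binding proteins, and inhibitors of such proteases, moved in both directions, with 4 of 10 higher, 5 lower and 1 not past the threshold (median −0.03). The share called was 90%, against 42.7% of all genes tested. Among the 4 higher, PAPPA2 had at most 24 counts in any library and lost its call in 3 of 14 alternative fits. The kallikrein KLK3, the prostate-specific antigen, fell from 1190 ± 42.1 to 141 ± 9.26 CPM (log2 fold change −3.08). KLK2 fell from 379 ± 7.34 to 94.9 ± 8.55 CPM (−1.996). Both are androgen-induced genes that can cleave IGFBPs, and both are also among the luminal markers above. ADAM28, named after its values were seen, is a metalloprotease that had 0 to 2 counts in LNCaP-enzaR against 0.470 ± 0.128 CPM in parental cells, at least 14.2-fold lower against a floor of 3 counts per library. The stanniocalcins STC1 and STC2, which inhibit pappalysins and were also named after their values were seen, fell by 4.07 and by 0.77 on the log2 scale. Other proteases were higher. HTRA1, a secreted serine protease, rose from 2.56 ± 0.159 to 17.6 ± 1.09 CPM (log2 fold change 2.78, edgeR, Benjamini-Hochberg adjusted p = 7.36e-12). ADAM12, a metalloprotease known to cut IGFBP3 and IGFBP5, rose from 0.457 ± 0.147 to 7.57 ± 0.414 CPM (4.06, edgeR, adjusted p = 1.06e-10).

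Adaptors and attenuators of the receptors numbered 23 tested genes (26 listed), of which 7 were higher, 1 lower and 15 not past the threshold (median 0.33). The 34.8% called compare with 42.7% of all genes tested, so the count alone does not set this list apart. GRB10, an adaptor that binds the activated insulin and IGF1 receptors and dampens their signal, was at 98.0 to 106 CPM in parental cells and at 825 to 859 CPM in LNCaP-enzaR. It rose from 102 ± 3.95 to 843 ± 16.8 CPM (log2 fold change 3.05, SE 0.056, edgeR, Benjamini-Hochberg adjusted p = 1.48e-14). GRB14, its relative with a like role, rose from 3.18 ± 0.110 to 8.72 ± 0.804 CPM (1.45, edgeR, adjusted p = 2.39e-08).

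PIK3R1, the regulatory subunit of PI3K that docks on IRS proteins, rose from 70.8 ± 0.904 to 319 ± 14.4 CPM (log2 fold change 2.17, edgeR, Benjamini-Hochberg adjusted p = 4.49e-13). SOCS2, a feedback inhibitor of cytokine and growth hormone signaling, rose from 5.49 ± 0.383 to 19.6 ± 1.06 CPM (1.84). NEDD4, a ubiquitin ligase that works with GRB10, rose from 8.37 ± 0.386 to 20.9 ± 1.40 CPM (1.32). IRS4 is an IRS family substrate that rose while IRS1 and IRS2 fell. It went from 0.729 ± 0.258 to 4.35 ± 0.342 CPM (2.58, edgeR, adjusted p = 8.5e-08). CBL, a ubiquitin ligase named after its values were seen, was the 1 gene of the list lower past the threshold, falling from 36.8 ± 1.85 to 22.3 ± 1.07 CPM (−0.72, edgeR, adjusted p = 3.52e-07).

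Of 5 listed regulators of IGF2 mRNA, only IGF2BP3 was tested. This gene of an RNA-binding protein, typical of fetal tissue and tumors, shares 17.8% of its exonic bases with MALSU1 and fell from 7.16 ± 0.810 to 2.99 ± 0.417 CPM (log2 fold change −1.25, SE 0.130, edgeR, Benjamini-Hochberg adjusted p = 9.13e-07).

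FOXO factors are held out of the nucleus by AKT, and the list holds both such factors and genes known as their targets. Of 12 tested FOXO genes and targets (13 listed), 7 were higher, 3 lower and 2 not past the threshold (median 0.63). The 2 not past it were the factors FOXO1 and FOXO3, while the factor FOXO4 was among the higher (0.95). The share called was 83.3%, against 42.7% of all genes tested. BCL6, a transcriptional repressor, rose from 24.5 ± 0.716 to 69.5 ± 2.78 CPM (log2 fold change 1.51, edgeR, Benjamini-Hochberg adjusted p = 4.64e-11). SESN3, a stress-induced inhibitor of mTORC1, rose from 125 ± 2.41 to 345 ± 42.3 CPM (1.47), and CITED2, a transcriptional coregulator, from 97.2 ± 1.16 to 181 ± 2.54 CPM (0.90). BCL2L11, which encodes the death-promoting protein BIM, went the other way, from 34.8 ± 1.497 to 15.3 ± 0.857 CPM (−1.18, edgeR, adjusted p = 2.46e-09). So did the targets CDKN1B (−0.82) and CCNG2 (−0.62), the latter losing its call in 3 of 15 alternative fits. The activity of FOXO factors and of AKT was not tested.

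Over all 5 lists together, 19 of 50 tested genes were higher, 12 lower and 19 not past the threshold, with a median of 0.35. That is 62% called, against 42.7% of all genes tested. The plot of pathway genes by list sets these beside the receptors and binding proteins.

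**Figure D4:**
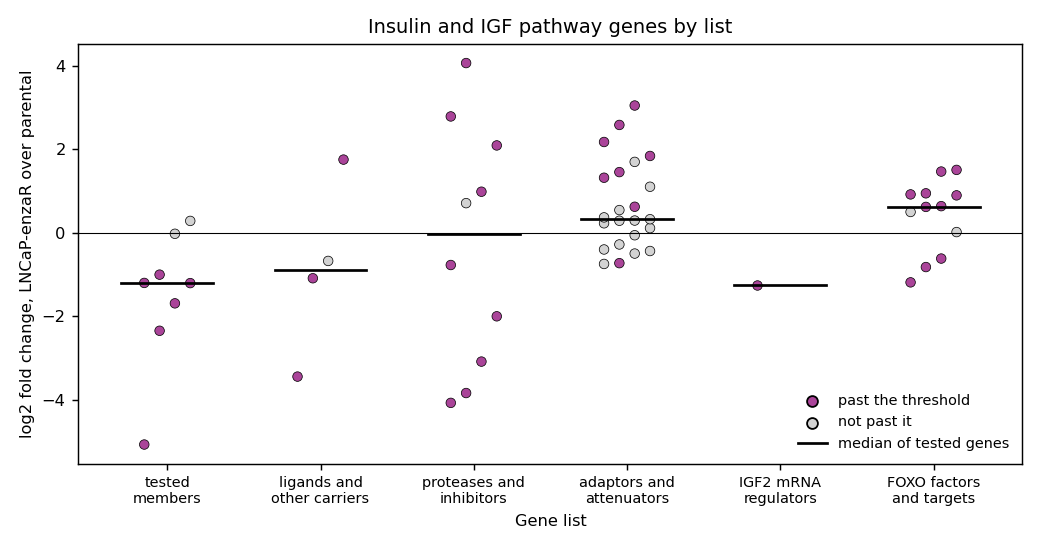
Log2 fold change, LNCaP-enzaR over parental (y axis), of each tested gene in 6 lists (x axis), filled in purple where past the threshold and grey where not, with a bar at the median. The receptors, substrates and binding proteins lie mostly under 0, with a median of −1.20, and the adaptors and attenuators mostly above it, with a median of 0.33.

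Many genes around IGF2R, IGFBP2 and IGFBP5 were lower as well. Neighbors were taken as genes whose lowest coordinate lay within 500 kb of either end of a gene. For IGF2R, 11 of 14 tested neighbors were lower past the threshold and none was higher, with a median log2 fold change of −1.30. Over all genes tested, 19.5% were lower and 23.3% higher. Among the 11, the noncoding RNA SOD2-OT1 lost its call in 3 of 14 alternative fits. Of the 8 that lie before IGF2R on the chromosome, 5 were lower, from −0.69 for MRPL18, a mitochondrial ribosomal protein, to −1.46 for ACAT2, an enzyme of sterol and ketone metabolism. TCP1, a chaperonin subunit in this stretch, fell from 668 ± 18.3 to 336 ± 15.9 CPM (−0.99), and WTAP, a subunit of the RNA methylation complex, fell by 1.14. ACAT2 shares 22.2% of its exonic bases with other genes, 17.2% with TCP1, which lies on the other strand. Without the strand setting, reads from this overlap cannot be told apart.

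All 6 neighbors that lie after IGF2R were lower, by more than IGF2R itself. SLC22A3, an organic cation transporter, fell from 199.7 ± 10.9 to 0.144 ± 0.035 CPM (log2 fold change −10.44, edgeR, Benjamini-Hochberg adjusted p = 2.8e-16), with 11 to 16 counts left per resistant library. The pseudogene LPAL2, which shares 68.7% of its exonic bases with another annotated gene of that name, fell by 5.79 on the log2 scale. SLC22A2 had 0 to 3 counts in LNCaP-enzaR, against 5.93 ± 0.385 CPM in parental cells, and was at least 180-fold lower (against a floor of 3 counts per library). The log2 fold change of IGF2R thus lay between those of the genes before it and those after it, apart from ACAT2. Whether the change of IGF2R belongs to that of the stretch was not tested.

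IGFBP2 and IGFBP5 have transcription starts 62.7 kb apart and 3′ ends 7.67 kb apart, with 6 tested neighbors each, counting each other. In both cases 4 were lower and none was higher, with a median of −0.81, against 19.5% lower of all genes tested. Apart from each other, both have the same neighbors, so the counts are not independent. SMARCAL1, a DNA annealing helicase, fell from 28.9 ± 1.84 to 16.1 ± 1.44 CPM (−0.85). RPL37A, a ribosomal protein gene, was at 805 ± 32.8 and 576 ± 75.2 CPM, and its log2 fold change of −0.48 was not past the threshold. None of the other neighbors had as low a fold change as IGFBP2 or IGFBP5.

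**Figure D5:**
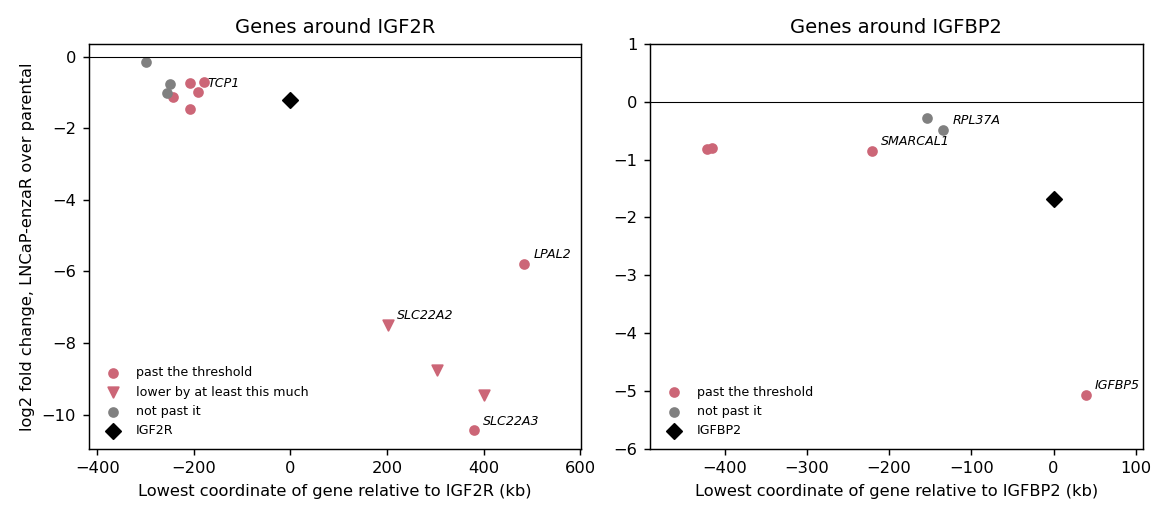
Log2 fold change, LNCaP-enzaR over parental (y axes, different ranges), of tested genes against their lowest coordinate relative to that of IGF2R or IGFBP2 in kb (x axes), with red circles for genes past the threshold, grey circles for others, triangles for lower bounds of the decrease and a diamond for the central gene. A neighbor of IGF2R is not drawn, and after IGF2R the plotted points reach −10.44, while beside IGFBP2 the lowest point is IGFBP5 at −5.06.

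Around IGF1R, 1 of 8 tested neighbors was higher and 1 lower, with a median of 0.10. Over all genes tested, 23.3% were higher and 19.5% lower. Both of these neighbors were noncoding RNAs with few counts. The higher had at most 31 counts per LNCaP-enzaR library, and the lower had 0 to 4. IRAIN, a noncoding RNA encoded just upstream of IGF1R on the other strand, was at 0.131 ± 0.085 and 0.157 ± 0.044 CPM (log2 fold change 0.28, edgeR, Benjamini-Hochberg adjusted p = 0.689).

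Around INSR, 4 of 18 tested neighbors were higher and none lower (median 0.19), a share of higher genes near the 23.3% of all genes tested, with TEX45 rising from 2.04 ± 0.343 to 5.45 ± 0.293 CPM. Around IRS1, 2 of 4 were higher, with COL4A3, a basement membrane collagen, at 0.0488 ± 0.044 and 0.388 ± 0.244 CPM (log2 fold change 2.95, edgeR, Benjamini-Hochberg adjusted p = 0.00173). IRS2 had no tested neighbor in the window. Around IGFBP3, 1 of 4 was higher, ADCY1, an adenylyl cyclase, which rose from 25.8 ± 1.84 to 41.1 ± 0.989 CPM.

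IGFBP4 and IGFBP6 sat among transcribed genes while being themselves at the limit of detection. Of 22 tested neighbors of IGFBP4, 7 were higher and 2 lower, and CDC6, a replication licensing factor, fell by 1.86 on the log2 scale. Of 26 around IGFBP6, 4 were higher and 8 lower, and ESPL1, the separase of mitosis, fell by 1.88. Over all genes tested, 23.3% were higher and 19.5% lower.

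In a wider window of 5 Mb on either side, chosen after seeing the data, 52.4% of 42 tested genes around IRS1 were lower past the threshold, as were 43.5% of 62 around IGFBP2 and IGFBP5 and 37.8% of 45 around IGF2R. Around the remaining genes of the set the share was 10.5% to 27.8%, and over all genes tested it was 19.5%. IRS1, IGFBP2 and IGFBP5 all lie on the long arm of chromosome 2, and whether these regions changed together was not tested. Within 500 kb of IRS1, none of the 4 tested neighbors was lower past the threshold.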

How the data were processed

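The authors made polyadenylated RNA libraries, sequenced them as paired ends, trimmed reads with Cutadapt, aligned them to GRCh38 with STAR and a GENCODE annotation, and counted them per gene with featureCounts. The deposited values are raw counts, not normalized. The strand setting, the handling of reads with several matches and the counting unit (read or fragment) are not given in the sources used here, so antisense and overlapping genes cannot be told apart. Groups and replicate numbers came from the sample titles. The titles call the samples biological replicates, and the growth protocol describes flasks plated in triplicate, without saying that they came from separate cultures, so p-values may measure only the spread between flasks.

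Counts were analyzed here with edgeR 4.0.16 in R 4.3.3 (filterByExpr, TMM, robust quasi-likelihood F-test, no covariate, Benjamini-Hochberg adjustment over 19711 genes). The limits (adjusted p 0.05, fold 1.5) are those of the study, whose DESeq2 was run as an alternative (version 1.42.0). The procedure was tested on simulated data. Where every library of a line had at most 3 counts, a bound against 3 counts replaced the fold change. Of the gene identifiers, 99.8% were found in GENCODE v44 (same build), used for strand and exon length. All 10 members had the same coordinates there, and all 10 matched a RefSeq promoter. Named genes were all members, INS, IGF1 and IGF2, the genes past the threshold with the smallest p-values in each list (up to 6 for adaptors, 4 otherwise), and the protein-coding neighbor of each member with the smallest p-value if past the threshold. IGFBP1, CBL, ADAM28, STC1, STC2, HELLPAR, IRAIN, the other genes named around IGF2R, and SMARCAL1 and RPL37A were named after their values were seen. So were PAPPA2, SH2B2, GAB1, CDKN1B, CCNG2 and the FOXO factors. A neighbor of IGF2R is counted with the others but not reported here by itself. Members and lists were chosen with earlier results of these data known. Alternatives were other tests, scalings, filters, gene sets, fold limits and gene lengths, a replicate block and leaving out each library.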

Additional observations from a re-analysis of the deposited data

How the results depend on the processing

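All 8 tested receptor, substrate and binding protein genes kept their side of the threshold in 15 alternative fits each, read at the same limits. Direction was kept too, except for IGFBP3, never past the threshold. IGFBP3 changed sign with upper-quartile scaling (0.078). When 1 library was left out it ranged from −0.053 to 0.026, being above 0 without LNCaP-enzaR replicate 3. With other fold limits, INSR was past the threshold without a minimum fold, and IRS2 was not past it with a fold of 2. Log2 fold changes ranged from −2.40 to −2.24 for IGF1R, 0.25 to 0.39 for INSR, −1.23 to −1.10 for IGF2R, −1.25 to −1.10 for IRS1, −1.05 to −0.90 for IRS2, −1.73 to −1.59 for IGFBP2 and −5.26 to −4.91 for IGFBP5. Upper-quartile scaling moved the median of all genes by 0.10 and the higher share of calls from 54.5% to 60.9%.

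Same-numbered replicates did not deviate together (correlations −0.211 to 0.008), so no shared effect of the replicate number was detected. With 3 flasks per line, this cannot show whether flasks of the same number were handled together. With the replicate block, 8212 genes were called, 6 members were still lower, and no list count changed. LNCaP-enzaR replicate 1 stood apart from the other flasks of its line. Chi-square per degree of freedom was 35.57 and 28.16 for its pairs, against 5.559 to 9.06 for the other pairs within a line. Without it, RPL37A (−0.587) and GAB1 (0.606) were past the threshold, while CCNG2 (−0.557) and SOD2-OT1 (−0.649) were not.

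With at least 10 counts in every library, 1 ligand or carrier was called, and the median around IGF2R was −0.85, since fewer genes were tested. Without a minimum fold, 16 adaptors and attenuators were called, and with a fold of at least 2, 3 FOXO genes and targets. Dividing by the longest transcript gave, in parental cells and LNCaP-enzaR, 215 and 212 CPM per kb for IGFBP3, 47.7 and 14.8 for IGFBP2, 17.1 and 7.46 for IGF2R, 8.94 and 1.76 for IGF1R, and 2.89 and 3.52 for INSR, in the same order. The shares of the summed binding protein level depend on the length used. With the longest transcript they were 81.3% and 93.4% for IGFBP3 and 18.1% and 6.55% for IGFBP2. A window of 5 Mb, chosen after seeing the data, gave neighbor medians of −0.46 for IGF2R and −0.50 for IGFBP2.

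Of 74 other genes followed, 64 kept direction and side in all fits read at the same limits, 3 lost a call, 5 gained one and 2 changed sign. The latter were FOXO1 (0.019, −0.0135 with library totals, −0.11 to 0.14 leaving out a library) and SH2B2 (−0.057, 0.044 with upper-quartile scaling, −0.15 to 0.083 leaving out a library). Without LNCaP-enzaR replicate 3, IGFBP1 was lower past the threshold (−1.10, adjusted p = 0.0207 by edgeR, against 0.0207 to 0.309 over its alternatives). IGFALS ranged from 1.37 to 2.44 and COL4A3 from 2.36 to 3.95, highest without parental replicate 3 and parental replicate 1. The cause of these shifts was not tested. Genes with few counts, IGFBP4 and IGFBP6 above all, are limited by depth.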
